A study of Caenorhabditis elegans with 46 samples.

Results

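The nuclear pore complex, the receptors that carry cargo through it, the Ran system that gives transport its direction, and the proteins of the nuclear envelope are encoded in *C. elegans* by the *npp*, *imb*, *ima*, *xpo*, *nxf*, *ran*, *lmn*, *emr*, *baf*, and *sun* gene families and by *lem-2*, *unc-84*, *zyg-12*, and *mel-28*. Of the genes that the study assigned to a DRM binding site, 29 carried such a name. These 29 genes were selected by how their names start, and they held 31 of the 1418 DRM sites, since *imb-3* and *npp-6* had 2 sites each. The question was which DRM subunits had a called peak at these 31 sites in wild-type late embryos, how high those peaks stood in their lists, and which of them were still called when the pocket protein LIN-35 was missing.

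DRM, the worm form of the DREAM complex, is built from the E2F-DP pair EFL-1 and DPL-1, the pocket protein LIN-35, and the MuvB module. Of MuvB, LIN-53 was not analysed here. E2F-DP binds DNA through its E2F-type sites, and the MuvB subunit LIN-54 binds a different element, while LIN-35 joins E2F-DP to MuvB. In animal cells DREAM is known for holding cell cycle genes silent in cells that have stopped dividing. Nuclear pores and the envelope are largely taken apart and rebuilt in each division of an animal cell, and dividing embryos have to supply new pores continually.

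ChIP-seq, which sequences the DNA that an antibody pulls down with its protein, was performed on whole late embryos of the wild-type strain N2 and of *lin-35(n745)*, a protein-null allele with an early stop codon. Wild-type larvae were grown for 72 hours and *lin-35* null larvae for 96 hours before embryos were collected, and embryos of both genotypes were aged for up to 3.5 hours. The study deposited 1 peak list for each subunit and genotype, 13 in all, with EFL-1, DPL-1, and the MuvB subunits LIN-54, LIN-52, LIN-37, and LIN-9 in both genotypes and LIN-35 in wild type. Most lists were made from 3 libraries, and the wild-type LIN-35 list from 2. The wild-type LIN-37 list joined 1 library of this series with libraries of an earlier one. For the other wild-type subunits, 2 libraries came from an older gel-based protocol, and any further one from the newer protocol that was used for every *lin-35* null library. Genotype, library protocol, and growth time therefore cannot be told apart.

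Each list gives positions and the SPP signal value of each peak, which is the height that the peak caller assigned to it, without counts of reads and without separate replicates. Depth, replicate error, and a test between genotypes could therefore not be had. The study reported that a single *lin-35* null replicate appeared unusually high in signal beside the others, and the *lin-35* null lists pool it. Which peaks would be left without that replicate is not known here. Every statement is a count or a level, and most counts over the set have the share over all 1418 sites beside them. The scale of the signal value differs from list to list, so a peak is given by its percentile within the list it came from, where the highest peak has 100. Wild-type lists held 1771 to 2291 peaks and *lin-35* null lists 783 to 1674, and peaks of a list shared a single width between 290 and 630 bp. A site without a peak lies under the threshold of that list, which is not a measured absence. Since whole embryos were used, weaker binding in every cell and binding in fewer cells cannot be told apart.

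All 31 sites carried wild-type peaks of LIN-35, EFL-1, DPL-1, LIN-54, LIN-52, and LIN-9, and 30 carried peaks of all 7 subunits, against 94.9% of all DRM sites. DRM sites had been defined from the overlap of wild-type peaks, so this count is set largely by that definition. The exception was *imb-2*, which had no LIN-37 peak in either genotype. By mean wild-type percentile the 31 sites ran from 24.2 at *ima-3* to 99.4 at *imb-3* site 1, with a median of 68.2 against 65.8 over all DRM sites. The map of percentiles by site and list shows the whole set.

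**Figure D1:**
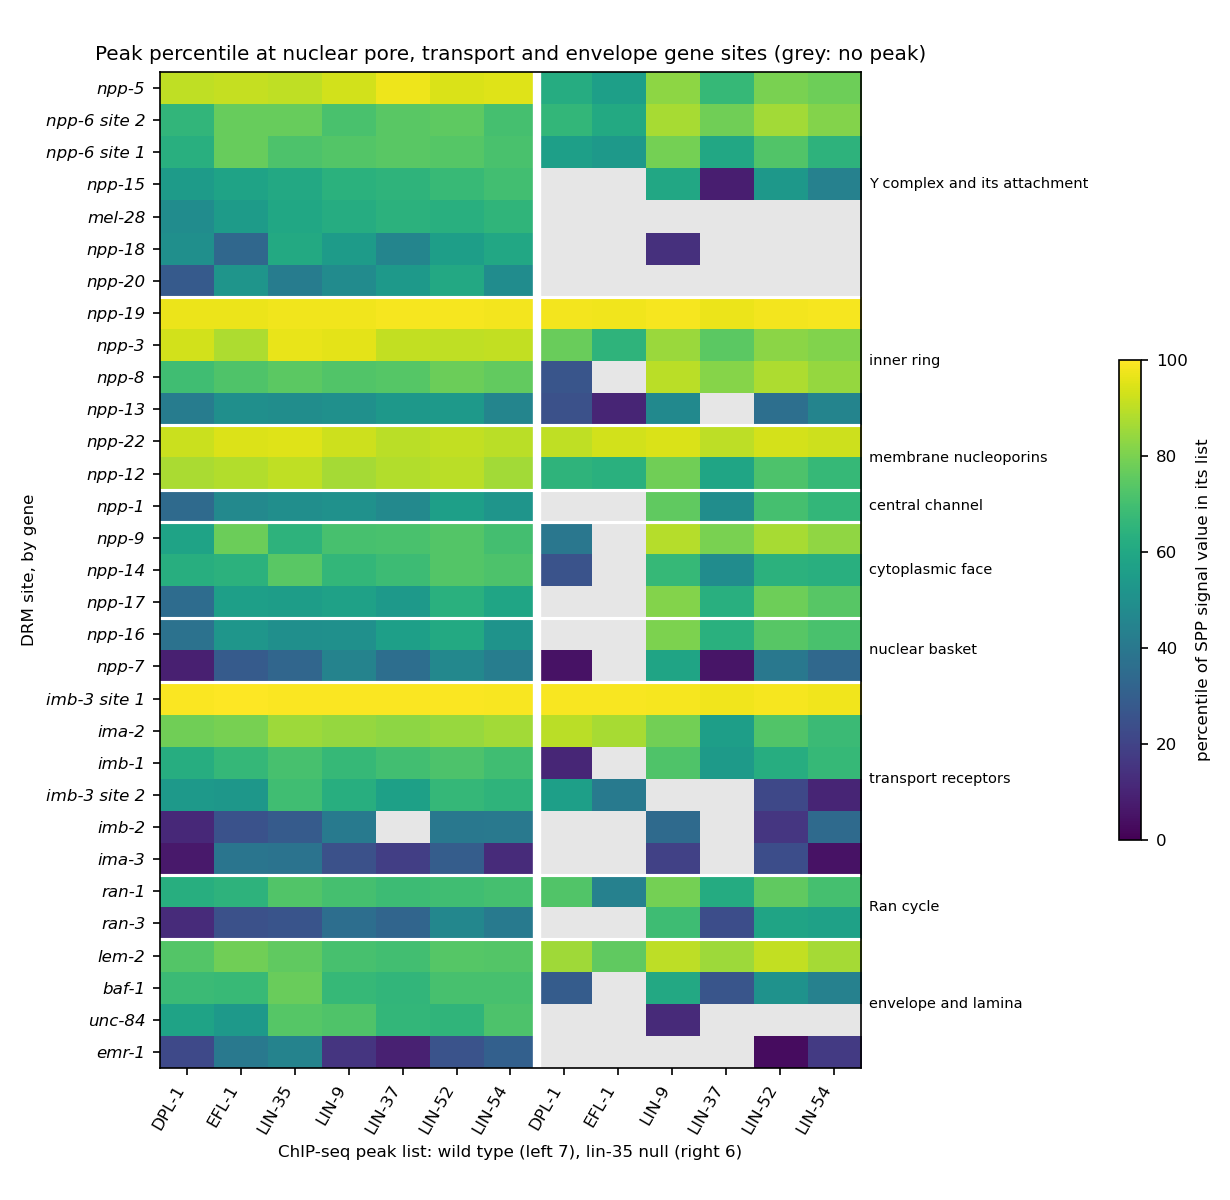
Percentile of the SPP signal value of the highest peak at each of 31 DRM sites (rows, grouped by the role of the gene product) in 7 wild-type and 6 *lin-35* null peak lists (columns), with grey where no peak overlapped the site. Colour runs from 0 (dark) to 100 (yellow): *imb-3* site 1 and *npp-19* stay near 100 in all 13 lists, while *mel-28* and *npp-20* are grey in all 6 *lin-35* null lists.

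Without LIN-35, 27 of the 31 sites kept a LIN-9 peak (70% of all DRM sites did), 27 a LIN-52 peak (65.7%), 27 a LIN-54 peak (62.6%), and 22 a LIN-37 peak (52%). E2F-DP peaks were called at fewer of them, with DPL-1 at 19 (56.6% of all DRM sites) and EFL-1 at 13 (46.9%). The 4 MuvB subunits were thus left at more of these sites than the background share, by 17.1 to 24.5 percentage points, whereas the difference was 4.73 points for DPL-1 and -4.96 points for EFL-1. At least 1 subunit was left at 29 sites, against 73.3% of all DRM sites. All 6 were left at 11 sites (40.6% of all), between 1 and 5 at 18 (32.7%), and none at 2 (26.7%). The last count depended on how far down the lists go, since it was 6 without the lowest 25% of each list and 7 with the *lin-35* null lists shortened to 783 peaks. The background shares were not matched for location, and 15 of the 31 sites lay in single-gene and 14 in bidirectional promoters. Of all DRM sites, 23.5% in single-gene and 11.1% in bidirectional promoters had no *lin-35* null peak. In introns and between genes it was 58.8% and 56.8%. Whether the set differs from other promoter sites was not tested. At least 3 of the 4 MuvB subunits were left at 25 sites (61.1%). A site counted as retained if EFL-1, DPL-1, and 3 or more MuvB subunits all had a *lin-35* null peak over it, which held for 12 of the 31 sites against 43.4% of all.

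**Figure D2:**
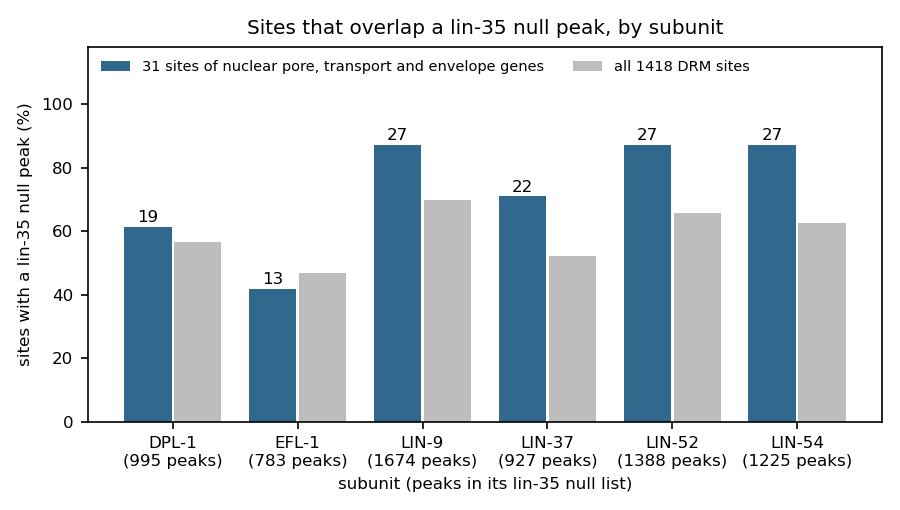
Share of the 31 sites (blue, with the number of sites above each bar) and of all 1418 DRM sites (grey) that overlapped a *lin-35* null peak of each of 6 subunits, in percent from 0, with the number of peaks in each list under its name. The blue bar is higher than the grey one for DPL-1 and the 4 MuvB subunits and lower for EFL-1.

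Of the genes for the Y complex, the scaffold of the outer rings of the pore, and for its attachment to chromatin, 6 of 9 listed had a site, and they covered the whole range from all 6 subunits left to none. *npp-5* (wild-type LIN-35 peak at chrII:11599747-11600036, ce10 build, single-gene promoter) encodes a Y complex nucleoporin that also sits at kinetochores. Its wild-type percentiles were 90.6 for LIN-35, 90.5 for DPL-1, 91.4 for EFL-1, 95.3 for LIN-54, 94.2 for LIN-52, 97.6 for LIN-37, and 93.2 for LIN-9. In *lin-35* null they were 77.8 for LIN-54, 80.04 for LIN-52, 66.9 for LIN-37, 82.97 for LIN-9, 62.01 for DPL-1, and 56.6 for EFL-1, so all 6 subunits were left and each stood lower in its list than in wild type.

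*npp-6*, another Y complex member, had 2 sites, 703 bp apart, in the promoter that it shares with *spd-5*, a gene for a scaffold of the centrosome. An additional DRM site that the study assigned to *spd-5* alone lies between them, 248 bp from the first, and in several lists its peak is the highest that overlaps the *npp-6* sites. The peak nearest to the middle of each *npp-6* site was therefore used for the values here, a choice made after the peaks had been seen. At site 1 (chrI:5175594-5175883), wild-type percentiles were 72.2 for LIN-35, 62.9 for DPL-1, 62.2 for EFL-1, 71.1 for LIN-54, 68.04 for LIN-52, 69.2 for LIN-37, and 73.3 for LIN-9. In *lin-35* null they were 59.3 for LIN-54, 72.05 for LIN-52, 50.7 for LIN-37, 78.5 for LIN-9, 45.1 for DPL-1, and 38.95 for EFL-1. Site 2 (chrI:5176297-5176586) had wild-type percentiles of 76.7 for LIN-35, 65.7 for DPL-1, 73.1 for EFL-1, 70.5 for LIN-54, 75.3 for LIN-52, 71.3 for LIN-37, and 71.4 for LIN-9. It had *lin-35* null percentiles of 81.6 for LIN-54, 86.02 for LIN-52, 78.4 for LIN-37, 86.98 for LIN-9, 66.3 for DPL-1, and 60.7 for EFL-1. All 6 subunits were left at both sites. Site 2 stood higher than site 1 in every *lin-35* null list, by more than in wild type for each subunit, where the means were 68.4 at site 1 and 72.0 at site 2. In *lin-35* null the means were 57.4 and 76.7.

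The other 4 genes of this group had MuvB peaks alone or no peak in *lin-35* null. *npp-15* (chrIII:7928543-7928832, bidirectional promoter shared with C29E4.13) had wild-type percentiles of 60.3 for LIN-35, 54.7 for DPL-1, 58.1 for EFL-1, 69.7 for LIN-54, 67.3 for LIN-52, 64.9 for LIN-37, and 63.8 for LIN-9. Only MuvB was left, at 44.1 for LIN-54, 53.2 for LIN-52, 8.31 for LIN-37, and 60.04 for LIN-9. *npp-18* (chrIII:13296452-13296741, single-gene promoter) encodes a small Y complex protein with a propeller fold, and its wild-type percentiles were 60.8 for LIN-35, 49.97 for DPL-1, 33.4 for EFL-1, 59.9 for LIN-54, 55.9 for LIN-52, 45.3 for LIN-37, and 55.1 for LIN-9. The sole *lin-35* null peak there was that of LIN-9, at a percentile of 13.9. *npp-20* (chrIV:1496689-1496978, bidirectional promoter shared with Y77E11A.1) encodes a protein that the pore shares with the coat of secretory vesicles, and it had wild-type percentiles of 42.1 for LIN-35, 28.3 for DPL-1, 52.2 for EFL-1, 48.6 for LIN-54, 60.2 for LIN-52, 54.3 for LIN-37, and 48.4 for LIN-9. *mel-28* (chrIII:4785736-4786025, bidirectional promoter shared with C38D4.1) encodes the chromatin-binding protein from which pores are rebuilt after division. Its wild-type percentiles were 59.5 for LIN-35, 48.5 for DPL-1, 55.03 for EFL-1, 65.4 for LIN-54, 63.2 for LIN-52, 64.2 for LIN-37, and 62.1 for LIN-9. Neither *npp-20* nor *mel-28* overlapped a *lin-35* null peak of any subunit. Around *npp-20* the nearest *lin-35* null summits lay 752 bp (LIN-9) and 741 bp (LIN-52) from the middle of the site, and around *mel-28* none lay within 1000 bp. In wild type the mean percentiles of 59.7 for *mel-28* and 47.7 for *npp-20* stood on either side of the median of 50.0 over all DRM sites without a *lin-35* null peak.

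All 4 genes listed for the inner ring, the layer that anchors the pore's central transport channel, had a site, and 3 of these sites were retained. *npp-19* (chrII:10798480-10798769, single-gene promoter) stood near the top of every list. It had wild-type percentiles of 97.8 for LIN-35, 96.9 for DPL-1, 97.1 for EFL-1, 98.4 for LIN-54, 98.8 for LIN-52, 98.8 for LIN-37, and 97.7 for LIN-9 and, in *lin-35* null, 98.4 for LIN-54, 98.1 for LIN-52, 97.2 for LIN-37, 98.7 for LIN-9, 98.2 for DPL-1, and 97.8 for EFL-1. *npp-3* (chrII:11874679-11874968) encodes a large inner ring scaffold, and it shares its promoter with *top-2*, the gene for a topoisomerase that untangles chromosomes. In wild type it reached percentiles of 96.9 for LIN-35, 93.1 for DPL-1, 87.8 for EFL-1, 90.9 for LIN-54, 90.3 for LIN-52, 90.8 for LIN-37, and 96.03 for LIN-9. Without LIN-35 all 6 subunits were called at lower percentiles, 80.9 for LIN-54, 82.5 for LIN-52, 74.6 for LIN-37, 84.9 for LIN-9, 77.2 for DPL-1, and 64.9 for EFL-1. *npp-13* (chrI:2096981-2097270), a single-gene promoter, was the only retained site with fewer than 6 subunits left. LIN-37 was not called there, and its *lin-35* null percentiles were 45.3 for LIN-54, 36.5 for LIN-52, 47.4 for LIN-9, 24.6 for DPL-1, and 10.3 for EFL-1. At *npp-8* (chrIV:1595841-1596130), a single-gene promoter, all 4 MuvB subunits stood between 81.7 and 89.7 in *lin-35* null and above their wild-type percentiles of 72.7 to 77.7, while DPL-1 was at 26.5 and EFL-1 was not called. As a multiple of the median signal of its list, only LIN-9 was higher in *lin-35* null, at 4.14 against 3.48. LIN-37 (2.32 against 3.22), LIN-52 (3.51 against 4.28), and LIN-54 (2.94 against 4.28) were lower. The MuvB peaks at *npp-8* thus stood high in their lists, and the only E2F-DP peak called there stood low in its list.

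Both membrane nucleoporin genes with a site, of 3 listed, kept all 6 subunits. *npp-22* (chrV:11733544-11733833, single-gene promoter) encodes a transmembrane protein of the pore. Wild-type percentiles of 95.2 for LIN-35, 92.1 for DPL-1, 94.7 for EFL-1, 89.8 for LIN-54, 90.98 for LIN-52, 89.7 for LIN-37, and 92.2 for LIN-9 stood beside *lin-35* null percentiles of 92.3 for LIN-54, 93.4 for LIN-52, 90.2 for LIN-37, 94.4 for LIN-9, 90.3 for DPL-1, and 92.98 for EFL-1, a difference of at most 2.54 in any subunit. *npp-12* (chrI:6446498-6446787), whose product is another transmembrane nucleoporin and whose promoter is shared with T23H2.3, ran from 86.2 to 90.4 in wild type and from 58.9 to 78.3 in *lin-35* null. The 2 ranges of *npp-12* did not overlap, and those of *npp-22* did.

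Of 3 genes for the phenylalanine-glycine proteins of the central channel only *npp-1* had a site (chrIV:9858129-9858418, single-gene promoter). Its wild-type percentiles were 49.2 for LIN-35, 34.4 for DPL-1, 47.2 for EFL-1, 52.2 for LIN-54, 56.6 for LIN-52, 47.04 for LIN-37, and 50.5 for LIN-9, and MuvB alone was left in *lin-35* null, at 66.1 for LIN-54, 70.6 for LIN-52, 49.2 for LIN-37, and 75.5 for LIN-9. Every MuvB subunit at *npp-1* stood higher in its *lin-35* null list than in its wild-type list. The same was seen at *npp-17*, listed with the cytoplasmic face of the pore (chrI:10025924-10026213, single-gene promoter). It encodes a messenger RNA export factor and is named *rae-1* in the current name table. *npp-17* had wild-type percentiles of 55.6 for LIN-35, 35.5 for DPL-1, 56.6 for EFL-1, 58.6 for LIN-54, 63.3 for LIN-52, 53.9 for LIN-37, and 57.1 for LIN-9, and 74.04 for LIN-54, 78.1 for LIN-52, 62.9 for LIN-37, and 81.4 for LIN-9 in *lin-35* null.

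The remaining cytoplasmic face genes were *npp-9* (chrIII:3404463-3404752, promoter shared with F59A2.5), whose product binds Ran on the cytoplasmic filaments, and *npp-14* (chrI:9665056-9665345, promoter shared with *cel-1*, the gene for the messenger RNA capping enzyme). Both kept all 4 MuvB subunits and DPL-1, and neither kept EFL-1. *npp-9* stood between 58.0 and 77.4 in wild type, and its *lin-35* null percentiles were 83.3 for LIN-54, 87.1 for LIN-52, 79.8 for LIN-37, 89.01 for LIN-9, and 39.6 for DPL-1. *npp-14* stood between 62.5 and 74.3 in wild type, and without LIN-35 at 63.2 for LIN-54, 64.4 for LIN-52, 48.5 for LIN-37, 66.9 for LIN-9, and 25.4 for DPL-1. DPL-1 was the lowest of the subunits left at either gene.

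In the nuclear basket, the pore's filaments on the nuclear side, *npp-7* and *npp-16* of 3 listed genes had a site. *npp-16* (chrIII:11915652-11915941, promoter shared with Y56A3A.19) encodes a basket protein that helps importin alpha release its cargo. It had wild-type percentiles of 49.6 for LIN-35, 37.6 for DPL-1, 52.4 for EFL-1, 51.4 for LIN-54, 60.7 for LIN-52, 56.5 for LIN-37, and 50.1 for LIN-9, and in *lin-35* null MuvB alone at 71.1 for LIN-54, 74.1 for LIN-52, 63.4 for LIN-37, and 80.3 for LIN-9. As at *npp-1* and *npp-17*, each MuvB percentile was higher in *lin-35* null. *npp-7* (chrI:5691695-5691984, promoter shared with *unc-40*, a gene for a netrin receptor of neurons) was low in wild type, from 8.87 for DPL-1 to 46.7 for LIN-52. All 4 MuvB subunits and DPL-1 were called there in *lin-35* null, at 33.96 for LIN-54, 40.1 for LIN-52, 5.61 for LIN-37, 58.2 for LIN-9, and 4.82 for DPL-1. The DPL-1 and LIN-37 peaks of *npp-7* were near the bottom of their lists.

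Among 11 listed transport receptor genes, 5 had a site, all of them importins. *imb-3* encodes a receptor of the importin beta family. Its site 1 (chrI:315105-315394, single-gene promoter) held the highest peak of the set in each of the 7 wild-type lists. The signal values at site 1 were 15606 for LIN-35, 18402 for DPL-1, 27586 for EFL-1, 25874 for LIN-54, 17423 for LIN-52, 13018 for LIN-37, and 18635 for LIN-9 in wild-type lists, and 7273 for LIN-54, 7515 for LIN-52, 4352 for LIN-37, 6221 for LIN-9, 9274 for DPL-1, and 15139 for EFL-1 in *lin-35* null lists, each on the scale of its own list. They correspond to wild-type percentiles of 99.6 for LIN-35, 99.4 for DPL-1, 99.8 for EFL-1, 98.95 for LIN-54, 99.4 for LIN-52, 99.3 for LIN-37, and 99.4 for LIN-9. In *lin-35* null the percentiles were 98.04 for LIN-54, 98.5 for LIN-52, 97.8 for LIN-37, 98.6 for LIN-9, 98.9 for DPL-1, and 99.1 for EFL-1. *imb-3* site 1 thus stood near the top of its list in both genotypes. Site 2 of *imb-3* (chrI:316029-316318) is intergenic by the study's annotation and lies 924 bp from site 1, with wild-type percentiles of 69.5 for LIN-35, 53.6 for DPL-1, 52.8 for EFL-1, 65.2 for LIN-54, 66.5 for LIN-52, 56.9 for LIN-37, and 62.5 for LIN-9. Its *lin-35* null peaks were at 10.4 for LIN-54, 21.8 for LIN-52, 56.3 for DPL-1, and 40.7 for EFL-1. It was the only site of the set with both E2F-DP subunits and fewer than 3 MuvB subunits, a pattern found at 2.89% of all DRM sites. The nearest *lin-35* null summits of LIN-9 and LIN-37 lay 937 and 936 bp from the middle of site 2, at the place of site 1.

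The importin alpha genes *ima-2* and *ima-3* encode adaptors that link cargo to importin beta. *ima-2* (chrI:6314752-6315041, single-gene promoter) kept all 6 subunits. Its wild-type percentiles were 85.2 for LIN-35, 78.1 for DPL-1, 79.4 for EFL-1, 86.03 for LIN-54, 84.5 for LIN-52, 82.99 for LIN-37, and 84.03 for LIN-9, and its *lin-35* null percentiles were 68.2 for LIN-54, 72.8 for LIN-52, 55.99 for LIN-37, 78.6 for LIN-9, 89.6 for DPL-1, and 86.8 for EFL-1. It was unlike most of the set in that DPL-1 and EFL-1 stood higher than every MuvB subunit in *lin-35* null. *ima-3* (chrIV:7561799-7562088, single-gene promoter) had the lowest mean wild-type percentile, with 38.1 for LIN-35, 7.00 for DPL-1, 38.8 for EFL-1, 12.2 for LIN-54, 29.3 for LIN-52, 18.7 for LIN-37, and 24.96 for LIN-9. The peaks left were 4.73 for LIN-54, 23.8 for LIN-52, and 19.2 for LIN-9, all in the lower 25% of their lists.

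*imb-2* (chrII:14365197-14365486, single-gene promoter), which encodes a transportin, was similarly low, with wild-type percentiles of 28.9 for LIN-35, 11.7 for DPL-1, 25.1 for EFL-1, 40.3 for LIN-54, 40.1 for LIN-52, and 40.6 for LIN-9. In *lin-35* null it had 34.6 for LIN-54, 15.9 for LIN-52, and 34.5 for LIN-9. *imb-1* (chrI:4926437-4926726, promoter shared with F28B3.5), the gene for importin beta itself, stood between 62.2 and 72.1 in wild type. Its *lin-35* null percentiles were 67.1 for LIN-54, 62.3 for LIN-52, 54.4 for LIN-37, 72.6 for LIN-9, and 10.7 for DPL-1, so DPL-1 was left only near the bottom of its list and EFL-1 was not called.

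Ran is the small GTPase whose nucleotide state tells importins and exportins which side of the envelope they are on. The Ran gene *ran-1* (chrIII:10747908-10748197, promoter shared with K01G5.5) kept all 6 subunits, with wild-type percentiles between 62.7 and 72.9 and *lin-35* null percentiles of 70.4 for LIN-54, 75.7 for LIN-52, 61.6 for LIN-37, 79.2 for LIN-9, 72.96 for DPL-1, and 43.8 for EFL-1. *ran-3* (chrII:8325168-8325457, promoter shared with C26D10.3) encodes the chromatin-bound exchange factor that charges Ran with GTP. Wild-type percentiles were 25.9 for LIN-35, 12.2 for DPL-1, 24.7 for EFL-1, 41.1 for LIN-54, 46.4 for LIN-52, 32.8 for LIN-37, and 36.1 for LIN-9, and MuvB alone was left, at 57.1 for LIN-54, 58.2 for LIN-52, 23.6 for LIN-37, and 69.1 for LIN-9. The 2 sites thus differed in E2F-DP, and *ran-1* had stood far above *ran-3* in wild type. The other 3 listed genes of the Ran cycle had no site in the table used.

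For the envelope and lamina, 4 of 7 listed genes had a site. *lem-2* (chrII:14063112-14063401, single-gene promoter) encodes an inner membrane protein with the LEM domain, through which it contacts BAF. It had wild-type percentiles of 75.8 for LIN-35, 73.1 for DPL-1, 78.4 for EFL-1, 73.4 for LIN-54, 73.8 for LIN-52, 69.7 for LIN-37, and 70.97 for LIN-9, and in *lin-35* null all 6 subunits were left, at 86.7 for LIN-54, 90.8 for LIN-52, 85.2 for LIN-37, 89.96 for LIN-9, 85.7 for DPL-1, and 75.6 for EFL-1. Its only subunit with a lower percentile in *lin-35* null was EFL-1. *baf-1* (chrIII:9467084-9467373, single-gene promoter), the gene for BAF, which bridges DNA and the LEM proteins, stood between 65.8 and 77.2 in wild type. It kept 44.00 for LIN-54, 51.01 for LIN-52, 26.5 for LIN-37, 60.2 for LIN-9, and 29.1 for DPL-1 in *lin-35* null, all lower than in wild type. *emr-1* (chrI:1841918-1842207, single-gene promoter) encodes emerin, another LEM protein. In wild type its percentiles were 44.6 for LIN-35, 22.1 for DPL-1, 40.3 for EFL-1, 30.7 for LIN-54, 25.7 for LIN-52, 9.14 for LIN-37, and 15.4 for LIN-9, and the peaks left were 17.1 for LIN-54 and 3.17 for LIN-52. The *unc-84* site (chrX:13584787-13585076) was the only one in an intron and the only one on X. *unc-84* encodes a SUN protein that links the envelope to the cytoskeleton and moves nuclei. Its wild-type percentiles of 73.8 for LIN-35, 58.1 for DPL-1, 54.2 for EFL-1, 72.1 for LIN-54, 65.6 for LIN-52, 66.2 for LIN-37, and 72.6 for LIN-9 were well inside the range of promoter sites, but in *lin-35* null only LIN-9 was called, at 11.9.

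Sites that kept only some subunits kept MuvB more often than E2F-DP. At 7 sites at least 3 MuvB subunits were left and no E2F-DP subunit, against 9.8% of all DRM sites. These were *npp-1*, *npp-15*, *npp-16*, *npp-17*, and *ran-3* with all 4 MuvB subunits (5.64% of all DRM sites), and *imb-2* and *ima-3* with LIN-54, LIN-9, and LIN-52. The combination of these 3 without LIN-37 was found at 3 sites, the other being *npp-13*, against 9.1% of all. Of the 7 sites without E2F-DP, 3 lay in bidirectional promoters, where 15.1% of all DRM sites had that pattern, and 4 in single-gene promoters (9.59%). With all DRM sites in 4 groups by mean wild-type percentile, 3 of the 7 were in the lowest group (18.6%) and 4 in the next (9.32%). A further 6 sites, those of *imb-1*, *npp-7*, *npp-8*, *npp-9*, *npp-14*, and *baf-1*, kept all 4 MuvB subunits and DPL-1 but not EFL-1, against 5.29% of all. With any number of MuvB subunits, DPL-1 without EFL-1 was found at the same 6 sites, against 10.2% of all. The reverse, EFL-1 without DPL-1, was found at 0 sites of the set and at 0.564% of all. At these 6 sites the *lin-35* null DPL-1 percentile was between 4.82 and 39.6, lower than each of LIN-9, LIN-52, and LIN-54 at the same site. The EFL-1 list was the shortest of all, with 783 peaks, and the DPL-1 list had 995, so a peak of equal rank could be left out of the first and kept in the second. When all *lin-35* null lists were shortened to 783 peaks, 6 sites had at least 3 MuvB subunits and no E2F-DP subunit. These were not all the same sites. *imb-2* and *ima-3* dropped out, with LIN-9 at ranks 1097 and 1353, and *imb-1* came in, with DPL-1 at rank 890. The DPL-1 peak of *npp-7*, at rank 948, was also lost, so DPL-1 without EFL-1 was left at fewer sites.

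Sites without a *lin-35* null E2F-DP peak had lower wild-type medians than sites with one, and the ranges overlapped. At the 12 sites without a *lin-35* null DPL-1 peak, the wild-type DPL-1 percentile ran from 7.00 to 58.1 with a median of 34.95. At the 19 sites with one it ran from 8.87 to 99.4 with a median of 68.0. For DPL-1 the overlap came from *npp-7*, *npp-13*, *npp-9*, and *imb-3* site 2 among the sites with a peak. For EFL-1, the 18 sites without a *lin-35* null peak had wild-type percentiles of 24.7 to 77.4 with a median of 53.3, and the 13 sites with one had 50.0 to 99.8 with a median of 79.4. Over all DRM sites the corresponding DPL-1 medians were 40.4 and 74.2, and the EFL-1 medians 51.4 and 81.03, so the set followed the pattern of DRM sites in general. The mean percentile of DPL-1 and EFL-1 was below that of MuvB at 25 of 31 sites in wild type (72.2% of all DRM sites) and at 16 of the 19 sites with both in *lin-35* null (78.4%). An equal rank gives a lower percentile in a shorter list. Wild-type lists held 1771 peaks for DPL-1, 2119 for EFL-1, and 2067 to 2290 for MuvB. In *lin-35* null they held 995, 783, and 927 to 1674. How far list length enters this comparison was not tested. Within MuvB, LIN-9 had the highest percentile at 21 of the 22 sites with all 4 *lin-35* null peaks (86.1% of such DRM sites) and LIN-37 the lowest at all 22 (94.7%). The exception for LIN-9 was *lem-2*, where LIN-52 stood slightly higher. LIN-9 also had the longest of these 4 lists, with 1674 peaks, and LIN-37 the shortest, with 927. At *npp-8*, for example, LIN-9 at rank 173 and LIN-37 at rank 171 had percentiles of 89.7 and 81.7. A difference between subunits and one of list length therefore cannot be told apart here.

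Sites that had stood higher in wild type were more often retained. By number of subunits left the order was not steady. Median wild-type percentiles were 53.7 with 0 left, 58.8 with 1, 26.9 with 2, and 27.6 with 3. They were 52.8 with 4 left, 68.7 with 5, and 88.2 with 6. When all DRM sites were put into 4 groups of nearly equal size by mean wild-type percentile, with bounds at 45.2, 65.8, and 83.3, retained sites of the set numbered 0 of 5 in the lowest group (13% of all DRM sites in that group), 1 of 9 in the next (23.4%), 5 of 11 in the one above (53.1%), and 6 of 6 in the highest (84.2%). The 6 in the highest group were *imb-3* site 1, *npp-19*, *npp-5*, *npp-3*, *npp-22*, and *npp-12*. Yet sites of like height differed. *unc-84*, with a mean wild-type percentile of 66.1, kept LIN-9 alone, while *ran-1*, at 68.4, kept all 6 subunits. Those 2 sites also differed in location, an intron on X against a bidirectional promoter. Nor did height fully order the sites, since *npp-7*, at only 34.4, kept 5 subunits, while *mel-28*, higher at 59.7, kept none. Of the *npp-7* peaks, those of LIN-54, LIN-52, LIN-37, and DPL-1 stood at ranks 810, 833, 876, and 948. With the *lin-35* null lists shortened to 783 peaks, only the LIN-9 peak would be left there. *npp-7* also lies in a HOT region, and *mel-28* does not.

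**Figure D3:**
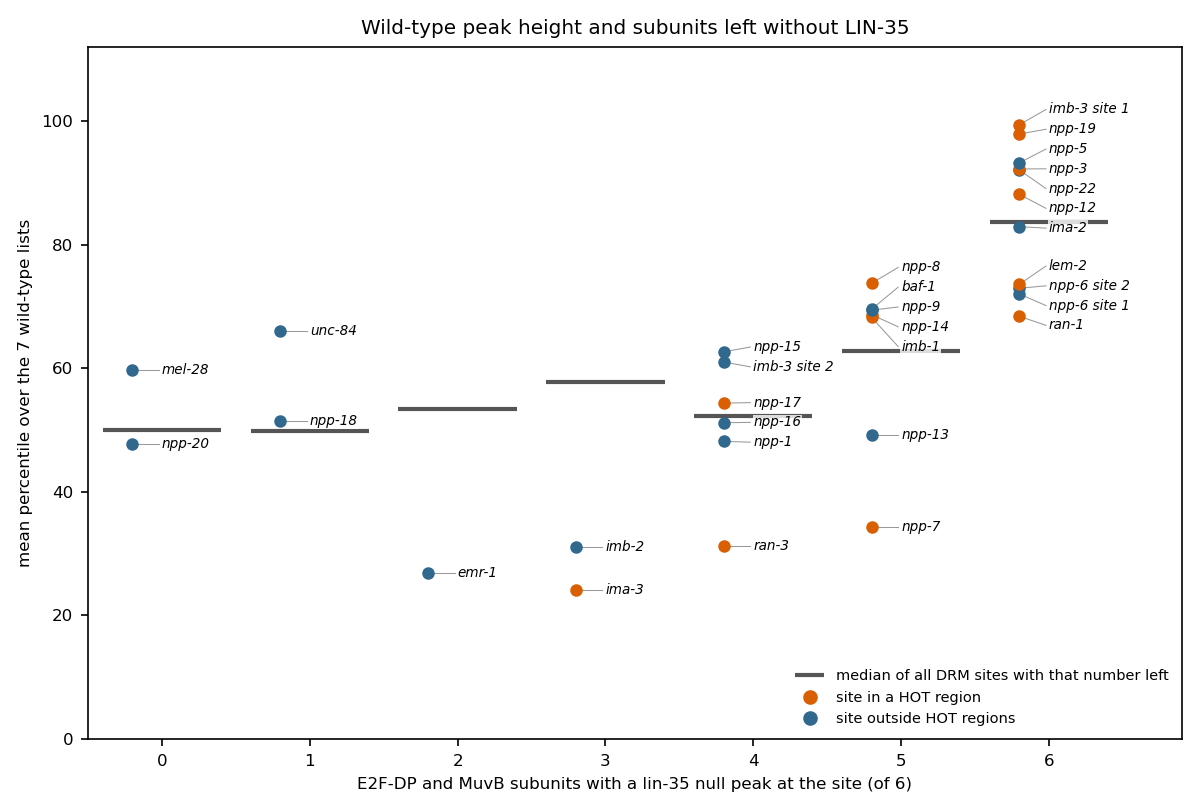
Mean percentile over the 7 wild-type lists (vertical axis) against the number of subunits, of 6, that had a *lin-35* null peak at the site (horizontal axis), for each of the 31 sites, coloured by whether the site lies in a HOT region, with a grey bar at the median of all DRM sites in each column. Sites with all 6 left lie between 68.4 and 99.4, and those with 1 to 4 left between 24.2 and 66.1.

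By the study's annotation, 15 sites lay in single-gene promoters, 14 in bidirectional promoters, 1 in an intron (*unc-84*), and 1 between genes (*imb-3* site 2). Retained were 7 of the 15 (48% of all DRM sites of that type) and 5 of the 14 (50.6%), and neither the intron site (18.9%) nor the intergenic one (21.6%). The 14 bidirectional sites belonged to 13 genes, and both sites without a *lin-35* null peak were among them. Of all DRM sites, 11.1% of those in bidirectional promoters had no *lin-35* null peak, against 23.5% of those in single-gene promoters. HOT regions are stretches where many unrelated transcription factors have been mapped, and 13 of the 31 sites lay in one (30% of all DRM sites). Of these, 6 were retained (60% of all HOT sites), as were 6 of the 18 outside HOT regions (36.4%). Chromosome I held 12 of the 31 sites (22.6% of all DRM sites), and 6 of those were retained (43.9% of all DRM sites on it). By role, retained sites numbered 3 of 7 for the Y complex and its attachment, 3 of 4 for the inner ring, 2 of 2 for the membrane nucleoporins, 0 of 1 for the central channel, 0 of 3 for the cytoplasmic face, and 0 of 2 for the nuclear basket. They numbered 2 of 6 for transport receptors, 1 of 2 for the Ran cycle, and 1 of 4 for the envelope and lamina, where 43.4% of all DRM sites were retained. With so few sites in a group, these counts are a description.

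Whether a peak counts as higher or lower without LIN-35 depended on the scale. Over the 135 pairs of a site and a subunit with a peak in both genotypes, the percentile was higher in *lin-35* null in 51 (31.7% of such pairs over all DRM sites), but the peak was nearer to the top of its list in 94 (60.6%). By percentile, the median difference of *lin-35* null minus wild type was -6.32 for DPL-1, -15.9 for EFL-1, -2.20 for LIN-54, -5.56 for LIN-52, -8.01 for LIN-37, and 1.07 for LIN-9. Over all DRM sites these medians were, in the same order, -9.99, -20.1, -8.60, -7.83, -14.03, and -1.49. Counted from the top, the median site of the set gained 43 places for DPL-1, 136 for EFL-1, 314 for LIN-54, 201 for LIN-52, 203.5 for LIN-37, and 146 for LIN-9. For 5 of the 6 subunits, all but LIN-9, the 2 scales thus gave opposite signs, and the shorter *lin-35* null lists enter both of them. A further scale, added after the data had been seen, was the signal value relative to the median of its list, as log2 in *lin-35* null minus wild type. Its median over the set was below 0 for every subunit, at -0.85 for DPL-1, -1.16 for EFL-1, -0.73 for LIN-54, -0.55 for LIN-52, -1.21 for LIN-37, and -0.45 for LIN-9. Over all DRM sites these medians were, in the same order, -0.81, -1.48, -1.47, -1.15, -1.50, and -0.86. None of these scales measures a change in the amount of DNA bound.

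**Figure D4:**
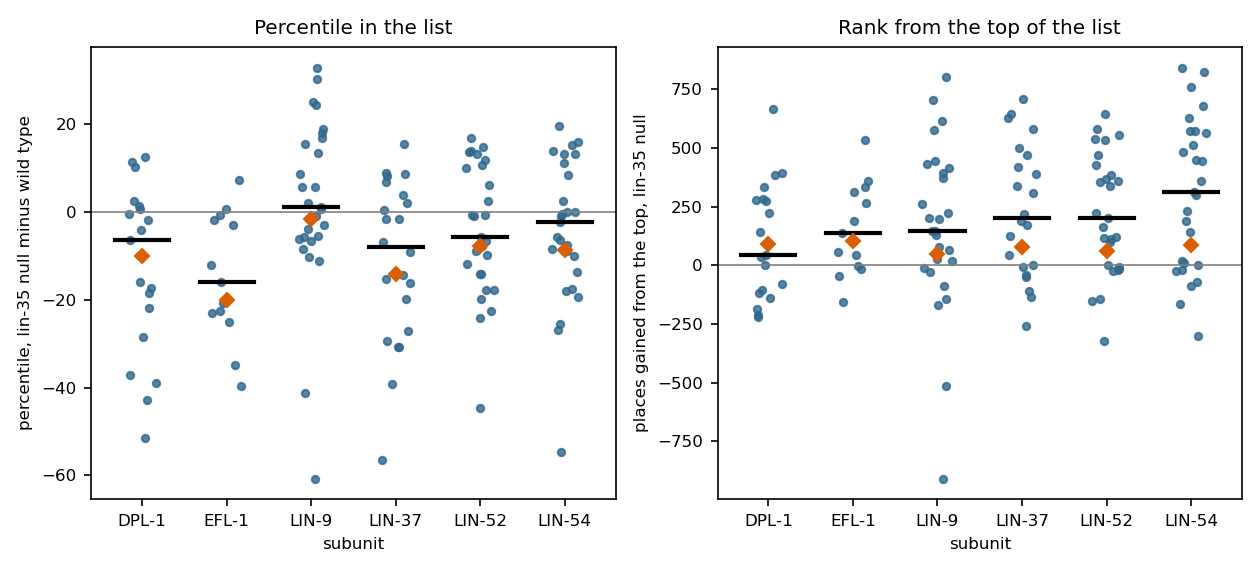
Change of each peak between genotypes for every site of the set with a peak of that subunit in both lists (blue points), as percentile in *lin-35* null minus wild type (left) and as places gained from the top of the list in *lin-35* null (right), with the median of the set (black line) and of all DRM sites (orange diamond). For every subunit but LIN-9 the median of the set is below 0 on the left and above 0 on the right.

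Some sites differed in the same direction by percentile, by rank from the top, and by percentile after each wild-type list was shortened to the length of its *lin-35* null list. These 3 scales are not independent, because each *lin-35* null list is shorter than its wild-type list. A higher percentile in *lin-35* null then always means a rank nearer the top, and the shortened lists give the same sign as the rank. Their agreement therefore adds no weight to a direction. On these 3 scales, every subunit that could be compared was higher in *lin-35* null at 3 of 29 sites, against 9.42% of DRM sites with such a subunit. These were *npp-1*, *npp-16*, and *npp-17*, with percentile gains of 2.15 to 25.05, 6.92 to 30.3, and 8.98 to 24.3 and at least 534 places gained by any subunit. No E2F-DP peak was called at them in *lin-35* null, so the gains concern MuvB. On the shortened scale LIN-37 could not be compared at *npp-1* and *npp-17*, since its wild-type ranks of 1119 and 974 lay beyond the 927 peaks of the *lin-35* null list. By signal relative to the list median all 4 MuvB subunits were higher as well, by 0.11 to 0.92 (log2) at *npp-1*, 0.06 to 1.27 at *npp-16*, and 0.19 to 0.87 at *npp-17*. At 6 of 29 sites no subunit was higher in *lin-35* null on any of the 3 scales, against 31.2% of DRM sites. They were *npp-3*, *npp-5*, and *npp-12* with all 6 subunits, *npp-18* and *unc-84* with LIN-9, and *imb-3* site 1. The difference in percentile ran from -34.8 to -10.2 at *npp-5* and from -29.4 to -8.34 at *npp-12*, and from -1.49 to -0.48 at *imb-3* site 1. None of their subunits was higher by signal relative to the list median.

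The subunits' summits, the middle of each peak, lay close together. In wild type, the summits of the 7 subunits at a site spanned a median of 27 bp (22 bp over all DRM sites), and at 26 of the 31 sites they lay within 50 bp (91.1% of all DRM sites). At *imb-3* site 1, *npp-19*, *npp-8*, *npp-12*, and *baf-1* they nearly coincided in the plot of summits. The widest spans, 363 and 376 bp, were those of the *npp-6* sites, where the highest peak in some lists was that of the site between them, and with the nearest peaks these spans were 19 and 26 bp. *npp-9* spanned 165 bp, with the EFL-1 and LIN-52 summits on 1 side and LIN-35, DPL-1, and LIN-54 on the other. Between genotypes, the summit of a subunit moved by a median of 8 bp for DPL-1, 16 bp for EFL-1, 12 bp for LIN-54, 13 bp for LIN-52, 16.5 bp for LIN-37, and 11 bp for LIN-9. Over all DRM sites these medians were, in the same order, 8, 8, 11, 10, 11, and 13 bp. The move was within 50 bp at 18 of 19 sites for DPL-1, 12 of 13 for EFL-1, and 24 of 27 for LIN-54. It was so at 25 of 27 for LIN-52, 19 of 22 for LIN-37, and 26 of 27 for LIN-9. Over all DRM sites the shares ran from 90.8% for LIN-9 to 96.7% for EFL-1. The peaks left without LIN-35 were thus, at most sites, near the wild-type position.

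**Figure D5:**
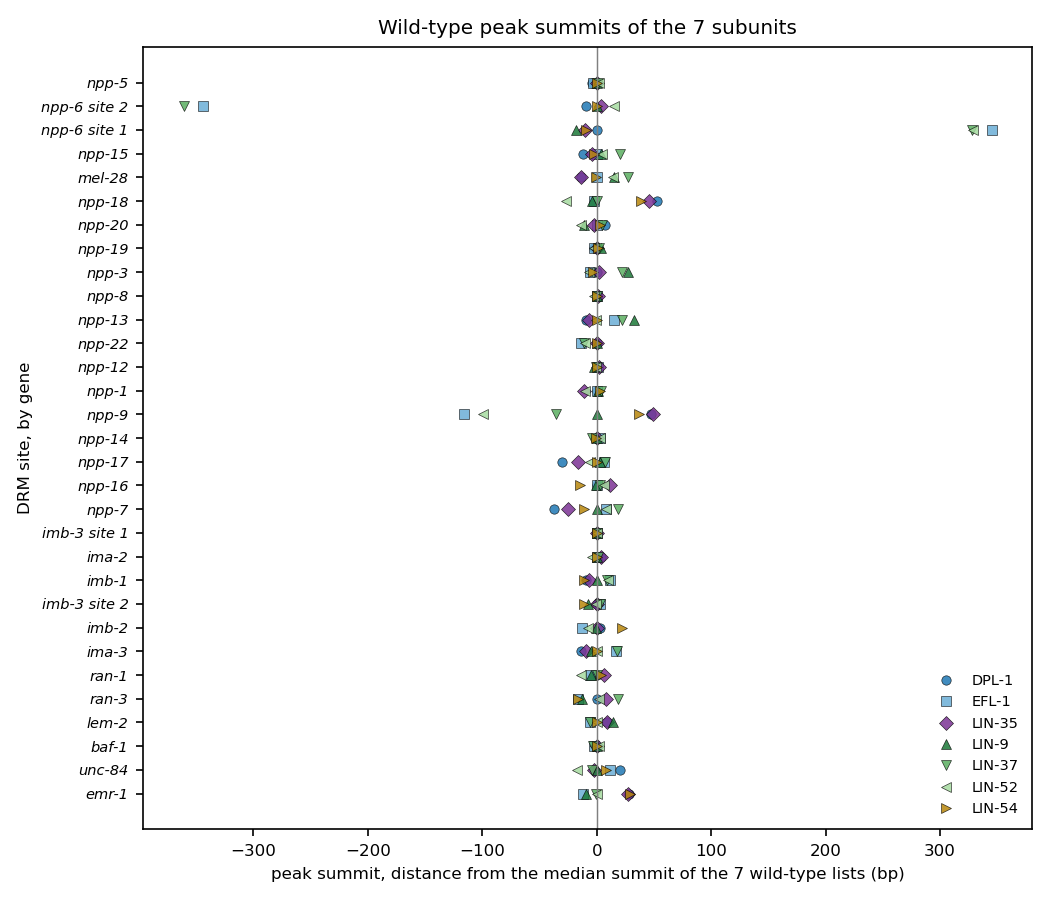
Distance in bp of each subunit's wild-type summit from the median summit of the 7 subunits at the site (horizontal axis) for the 31 sites (rows, in the order of the map of percentiles), taking the highest peak of each list. At 26 sites all points lie within a span of 50 bp, and the outlying points at *npp-6* are peaks of the site between its 2 sites.

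Of 49 named genes in the 9 role lists, 29 had a DRM site, and for the other 20 no site was found in the table used. Without a site were, among others, *lmn-1* for the worm's lamin, *sun-1* and *zyg-12* for the bridge to the centrosome, *ran-2* for the Ran GTPase activator, the exportins *xpo-1*, *xpo-2*, and *xpo-3*, *nxf-1* and *nxf-2* of the messenger RNA exporter family, and *npp-10* and *npp-2* of the Y complex. The listed exportins and *nxf* genes were therefore all without a site, as was the importin alpha gene *ima-1*, whereas *imb-1*, *imb-2*, *imb-3*, *ima-2*, and *ima-3* had one. The table gives the study's assignment of a site to a gene, and a gene without an entry was not examined for peaks of single subunits. In all, 1761 genes had a site, but their share of all genes of the worm was not worked out. The counts of genes with and without a site, here and by role, therefore have no background beside them and are a description.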

How the data were processed

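ChIP-seq peak lists of 7 DRM subunits in wild-type late embryos and of 6 in *lin-35(n745)* late embryos were used. Per the labels and the study's methods, the authors used Bowtie 1.1.2 and the ce10 genome for mapping, called peaks with SPP against input, kept peaks by the irreproducible discovery rate at 1% over all replicates, and deposited 1 pooled list for each subunit and genotype. The deposited signal value of each peak is on a scale that the sources used here do not state, and the depth behind it is unknown. From the study's supplementary tables only the positions of 1418 sites of 500 bp, their HOT mark, the genes assigned to them, and the type of location were taken. No statistic or expression value of those tables was used.

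Genes were selected by how their names start. The members and the role lists were chosen with earlier results of these data known. A site held a peak when they overlapped by at least 1 bp, and the highest such peak was taken, with its percentile in the list from average ranks. Retained sites had *lin-35* null peaks of DPL-1, EFL-1, and at least 3 of the 4 MuvB subunits. Because a list pools its replicates, each group is 1 list, and no test was run. Values in every list are given for genes with 2 sites, for sites outside promoters, for the up to 8 sites with all 6 subunits left that had the highest mean *lin-35* null percentile, for sites without a *lin-35* null peak, and for sites with E2F-DP or MuvB alone. Other members are given by subunits left and range, and those in the account of all 3 scales were named after their values had been seen. Overlap, peak width, threshold, list length, definition, scale, and choice among overlapping peaks were varied. The steps were tested on simulated peaks with known answers.

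Python 3.11.15, numpy 2.4.6, scipy 1.17.1, pandas 2.3.3, and matplotlib 3.10.9 were used. The 2 LIN-35 libraries of *lin-35* null embryos and the 8 input libraries were not analysed here. Promoter sequences and motifs were not analysed here, since neither a ce10 genome nor promoter sequences were used. Gene symbols of 28 of the 29 genes matched the name table, and *npp-17* matched by its WormBase gene number. In the role lists, *imb-5* and *imb-6* matched no symbol of the table and were not counted.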

Additional observations from a re-analysis of the deposited data

How the results depend on the processing

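No paired analysis was possible because each deposited list pools the replicates of a subunit and genotype, and for the same reason no replicate could be left out. The planned look at promoter sequences was not run, since no sequence was at hand. Of 88 values recomputed under another setting, 63 counted as unchanged, 14 moved further than the set tolerance, and 11 changed sign. Differences between genotypes in places or in log2 signal have other units than percentile points and were judged by sign alone. For the rest the tolerance was 1.5 times for counts and 10 percentile points for percentiles. An overlap of at least 50% of the shorter interval and peaks set to 200 bp changed no count by more than that. Sites without a *lin-35* null peak numbered 6 without the lowest 25% of each list and 7 with the *lin-35* null lists shortened to 783 peaks, against 2 here, so this count depends on how far down the lists go. Sites with wild-type peaks of all 7 subunits numbered 16 with the wild-type lists shortened to the length of the *lin-35* null lists. Retained sites numbered 29 when any 1 of the 6 subunits sufficed and 11 when all 6 were asked for. Retained sites in bidirectional promoters, 5 here, belonged to 4 genes.

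When peaks were ranked only among those at DRM sites, median wild-type percentiles of the set were 53.3 for LIN-35, 48.0 for DPL-1, 48.0 for EFL-1, 51.3 for LIN-54, 51.1 for LIN-52, 50.2 for LIN-37, and 51.7 for LIN-9, and *lin-35* null medians were 56.3 for LIN-54, 60.8 for LIN-52, and 64.6 for LIN-9. The median difference between genotypes turned from below to above 0 in rank from the top, with 43, 136, 203.5, 201, and 314 places gained for DPL-1, EFL-1, LIN-37, LIN-52, and LIN-54, and with the wild-type lists shortened, at 3.72, 7.41, 15.97, 11.7, and 15.3 percentile points. By signal relative to the list median, a scale added after the data had been seen, the median for LIN-9 turned from above to below 0, at -0.45 (log2). These lists differ in length, and no direction of change is claimed for the set. For *npp-6*, taking the nearest peak, a choice made after the data had been seen, gave mean wild-type percentiles of 68.4 and 72.0 and mean *lin-35* null percentiles of 57.4 and 76.7 at its 2 sites.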
